A study of Mus musculus with 21 samples.

Results

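The enzymes described here make, use and recycle glutathione, or remove peroxides, superoxide, quinones and haem, in the developing mouse testis. They were chosen by gene symbol: the glutathione transferase families (Gsta, Gstm, Gstt, Gstp, Gsto, Gstk, Gstz and the microsomal Mgst), the glutathione peroxidases (Gpx), the peroxiredoxins (Prdx), glutamate-cysteine ligase (Gcl), the thioredoxin reductases (Txnrd), and Gss, Gsr, Cat, Sod1, Sod2, Sod3, Nqo1 and Hmox1. The rule found 81 probe sets for 47 genes, of 45101 probe sets on the array and 18193 genes with a probe set of their own. The rule itself read no measured value, though it was chosen with earlier results of these data known. Of the 81 probe sets, 74 passed the filter on low values, and 43 of the 47 genes were tested among 14338. The other 4 genes, Gpx5, Gpx6, Gstp3 and Gstt4, did not pass. A further 6 probe sets that the platform assigns to several genes at once were left out.

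Whole testes of wild-type male CD-1 mice, an outbred stock, were profiled on Affymetrix arrays at gestation day (gd) 11, 12, 14, 16 and 18 and at postnatal day (pnd) 2, with no treatment in any group. There were 5 arrays at gd11 (Theiler stage 18, pools of 2), 3 at gd12 (stage 20, pools of 5), and 3 at each of the later times, which the sample labels give as not pooled (Theiler stages 22 at gd14, 24 at gd16, 26 at gd18 and 27 at pnd2). A further array held a pool of 8 whole wild-type newborns at pnd 0.5, 4 male and 4 female (stage 27), whose strain the labels do not give. It serves as a whole-body reference and has no replicate.

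Glutathione is a small thiol peptide made by glutamate-cysteine ligase and glutathione synthetase. Transferases join it to reactive compounds, peroxidases spend it on hydrogen peroxide and lipid peroxides, and glutathione reductase restores it with NADPH. Peroxiredoxins do like work with electrons from thioredoxin, which the thioredoxin reductases recharge. In the testis these enzymes are known from steroid-making Leydig cells, from Sertoli cells and from germ cells, and many respond to the transcription factor NRF2.

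The mu class transferase genes lie side by side on chromosome 3, and the comparison of gd11 with gd12 below turns on their order there. In the RefSeq annotation of GRCm38.p6 that order is Gstm5, Gstm7, Gstm6, Gstm3, Gstm2, Gstm1 and Gstm4. Windows of 300 bases at the outermost annotated start of each were read from RefSeq sequence of that build, and the 100 bases just before the start are shown to let the inner and the end genes be compared. Capitals mark each C followed by G (a CG pair), the pair that DNA methylation acts on.
Gstm5 (chr3:107895754-107895853, plus strand): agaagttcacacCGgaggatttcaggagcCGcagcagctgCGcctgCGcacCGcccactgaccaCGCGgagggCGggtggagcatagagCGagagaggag
Gstm7 (chr3:107931818-107931917, minus strand): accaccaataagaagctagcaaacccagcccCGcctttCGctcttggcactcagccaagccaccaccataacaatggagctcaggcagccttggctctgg
Gstm6 (chr3:107953467-107953566, minus strand): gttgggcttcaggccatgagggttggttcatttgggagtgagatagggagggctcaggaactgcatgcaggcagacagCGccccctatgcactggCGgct
Gstm3 (chr3:107969175-107969274, minus strand): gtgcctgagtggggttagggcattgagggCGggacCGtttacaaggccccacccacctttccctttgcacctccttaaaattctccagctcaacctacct
Gstm2 (chr3:107986421-107986520, minus strand): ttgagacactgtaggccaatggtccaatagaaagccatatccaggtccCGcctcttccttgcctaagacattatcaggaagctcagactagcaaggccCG
Gstm1 (chr3:108017974-108018073, minus strand): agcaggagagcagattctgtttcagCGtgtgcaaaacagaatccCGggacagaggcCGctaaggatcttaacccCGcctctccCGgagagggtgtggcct
Gstm4 (chr3:108044860-108044959, minus strand): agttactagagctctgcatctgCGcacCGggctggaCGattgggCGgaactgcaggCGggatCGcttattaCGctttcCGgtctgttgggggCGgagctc

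The 300-base window held 18 CG pairs at Gstm5 and 14 each at Gstm4 and Gstm1, against 6 at Gstm7, 5 at Gstm3, 4 at Gstm6 and 3 at Gstm2. The median over all 32851 windows of the table was 7. Gstm1 rose with the inner genes but had as many pairs as Gstm4, so the count did not divide the genes as their change did.

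The core of the antioxidant response element, the site read by NRF2 and its Maf partners, was searched as TGACNNNGC on both strands in the windows of 250 bases before to 50 after each annotated start. RefSeq windows of GRCm38.p6 were found for 41 of the 47 genes. The entries not found were Gclc, Gsr, Gsta4, Gstt2, Hmox1 and Sod3. Of 55 member windows 7 held the core (12.7%), against 4071 of all 32851 (12.4%), so the share in the members was close to that in all genes. The 7 genes with a match are shown with 15 bases on each side, the 9-base core in capitals. In Gclm, Mgst1, Txnrd1 and Sod1 the core lies on the other strand, so its reverse complement is in capitals.
Gsta3 (chr1:21240449-21240487, plus strand): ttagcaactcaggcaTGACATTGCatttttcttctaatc
Gstm5 (chr3:107895797-107895835, plus strand): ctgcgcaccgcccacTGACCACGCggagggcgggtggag
Gstm7 (chr3:107931720-107931758, minus strand): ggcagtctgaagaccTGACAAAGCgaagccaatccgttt
Gclm (chr3:122245408-122245446, plus strand): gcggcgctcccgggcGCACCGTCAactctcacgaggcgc
Mgst1 (chr6:138140456-138140494, plus strand): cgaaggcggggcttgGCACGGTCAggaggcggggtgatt
Txnrd1 (chr10:82859099-82859137, plus strand): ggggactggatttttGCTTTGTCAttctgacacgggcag
Sod1 (chr16:90220691-90220729, plus strand): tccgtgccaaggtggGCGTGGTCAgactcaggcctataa

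All values below are intensities on a linear scale, in which the trimmed mean of every array is 500. Changes are differences of log2(intensity + 22.4) between stage means, given with the standard error (SE) of the limma fit and its adjusted p, and a gene is called at an adjusted p below 0.05. For dim genes a fold taken from this scale is too small. A stage mean below 71.6 is termed near background. For a gene near background on 1 side, a lower bound on the fold is also given, in which each array below 71.6 counts as 71.6. This bound, written as at least, covers only signal lost below 71.6. It takes no account of the spread between arrays, for which the SE is given. In whole-testis RNA, fewer cells of a type and less RNA per cell cannot be told apart, and precision is limited by how many arrays a stage has. The labelled tissue showed its markers from gd12 on. The summed intensity of 11 Sertoli cell genes was 1740 to 3311 at gd11, where 7 of them including Amh were near background, 20768 to 34982 at gd12 and 86573 to 96836 at pnd2. Gd11 replicates 16 and 17 stood apart, with summed intensities of 9 neural genes of 64917 and 39103 against 3749 to 8502 on the other gd11 arrays. Every comparison of the enzyme genes and their pathway partners with gd11 was therefore also made without these arrays. The counts of marker genes were not remade without them.

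Across development 36 of the 43 genes passed the moderated F-test over 6 stages, against 68.3% of all genes, and 22 both passed it and had a highest stage mean at least 2-fold above the lowest, against 32.5% of all genes. Of these 22, 17 were lowest at gd11 and 13 were highest at pnd2; of the 4661 genes of all kinds that met both conditions, 1875 were lowest at gd11 and 1014 highest at pnd2. Comparing the ends of the series, 30 of the 43 genes differed between gd11 and pnd2 (48.6% of all genes did), 22 of them higher at pnd2 (24.2% of all genes) and 8 lower (24.4% of all genes). The median change was 0.51 over the 43 genes and -0.03 over all genes. Without gd11 replicates 16 and 17 the count was 29, with Gstp1 and Nqo1 no longer called and Gpx3 added. The other 28 genes kept their call and their direction. The largest shift was that of Gstt1, from 1.67 to 1.15, and among the other changes given below were 3.72 for Gstm2, 3.69 for Gstm1, 2.09 for Gstm7, 5.17 for Gsta2, 2.98 for Gsta3, 4.20 for Sod3, 1.92 for Hmox1, 1.25 for Gsr, 1.18 for Gclc, 1.22 for Gclm, -0.80 for Txnrd1 and -1.17 for Gstk1.

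**Figure D1:**
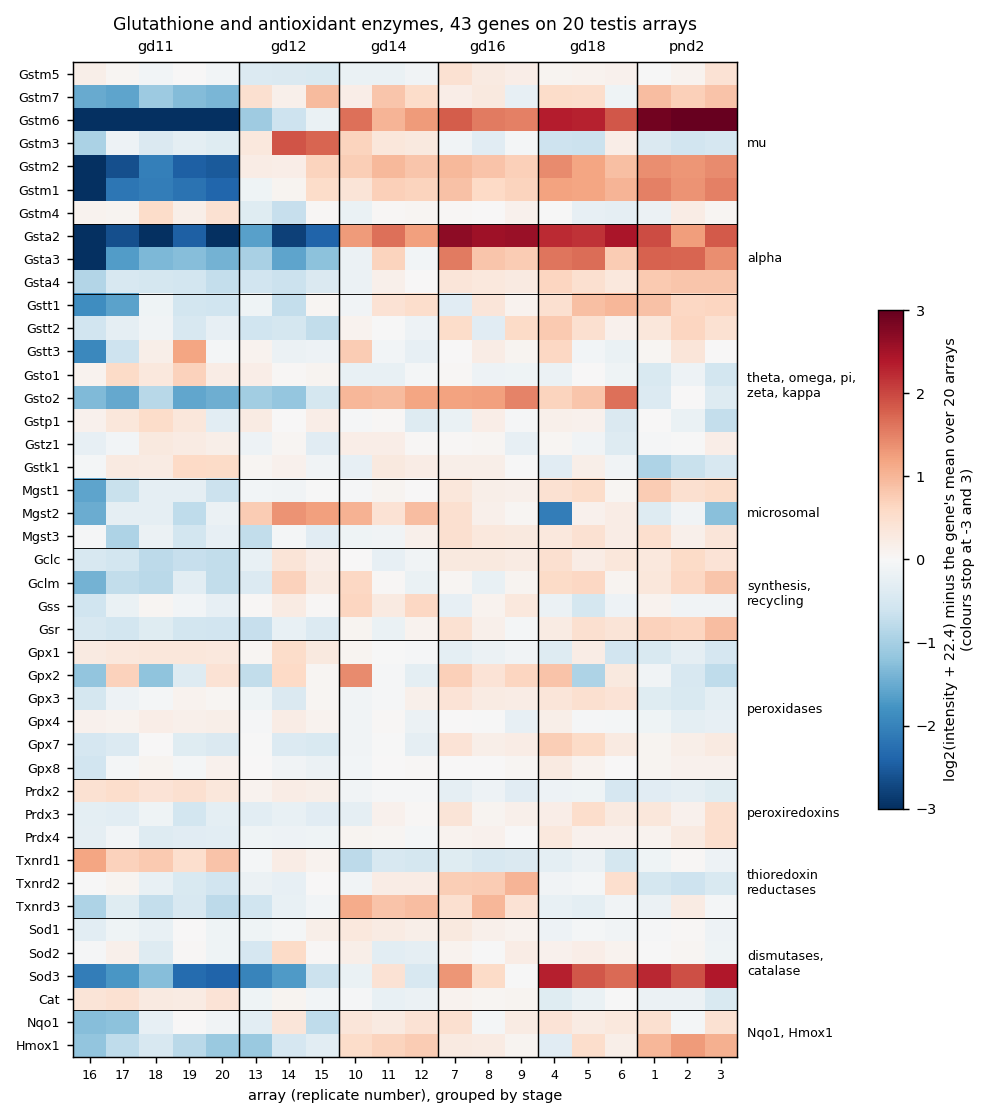
Each row is 1 of the 43 tested genes, grouped by enzyme class, and each column 1 of the 20 testis arrays, grouped by stage and named by replicate number. Colour gives log2(intensity + 22.4) minus the gene's mean over the 20 arrays, blue below and red above; Gstm6, Gstm2, Gstm1, Gsta2, Gsta3 and Sod3 run from blue at gd11 to red at pnd2, while Txnrd1 is red at gd11 and bluest at gd14.

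The largest single step was gd11 to gd12 for 7 of the 22 risers (Gclc, Gclm, Gstm1, Gstm2, Gstm6, Gstm7 and Mgst1) and gd12 to gd14 for 12 (Gsr, Gsta2, Gsta3, Gsta4, Gsto2, Gstt2, Hmox1, Nqo1, Prdx3, Prdx4, Sod3 and Txnrd3). It came later for Gpx7 and Mgst3 (gd14 to gd16) and for Gstt1 (gd16 to gd18). These steps are described by size, and not all of them were called.

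Between gd11 and gd12, 15 of the 43 genes were called, against 21.4% of all genes, and on 13 of the 15 the arrays of the 2 stages did not overlap. In that interval 10 rose (11.2% of all genes did) and 5 fell (10.2% of all genes). Without replicates 16 and 17 the count was 13, and Mgst1 and Prdx2 were not called. The other 13 kept their direction, with 1.79 for Gstm7, 1.69 for Gstm3, -0.38 for Gstm5, -0.74 for Gstm4, 1.52 for Mgst2, 1.21 for Gsta2, 0.87 for Gclc, 0.81 for Gclm, -0.62 for Txnrd1 and -0.35 for Cat. Next, from gd12 to gd14, 10 were called, against 18.7% of all genes: 9 rose (11.4% of all genes) and 1 fell (7.34% of all genes), and the arrays did not overlap for any of the 10. From gd14 to gd16 the count was 3, against 10.4% of all genes. All 3 rose (5.39% of all genes) and limma called 0 lower (4.99% of all genes), with 4 lower at an unadjusted p below 0.05 and 2 lower in a limma fit of the arrays of these stages alone. From gd16 to gd18 it was 2, against 4.88% of all genes. Both fell (3.18% of all genes) and limma called 0 higher (1.7% of all genes), with 2 higher at an unadjusted p below 0.05 and 4 higher in a fit of these stages alone. At birth, from gd18 to pnd2, 5 were called, against 7.8% of all genes: 1 rose (2.54% of all genes) and 4 fell (5.26% of all genes).

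The mu class transferases, which join glutathione to many foreign and cell-made electrophiles, split by position at the start of testis formation. Moving from gd11 to gd12, the 5 inner genes of the cluster rose and both end genes fell. Read along the chromosome, the log2 changes were -0.45 for Gstm5, 1.90 for Gstm7, 3.87 for Gstm6, 1.77 for Gstm3, 3.12 for Gstm2, 2.62 for Gstm1 and -0.61 for Gstm4. All 7 were called, with adjusted p from 3.99e-08 (Gstm6) to 0.0158 (Gstm4), and arrays of the 2 stages did not overlap for any of them. The call on Gstm4 was lost without gd12 replicate 14 and in a fit of the gd11 and gd12 arrays alone.

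Gstm6 showed the widest range of all members. Its gd11 arrays read 5.22, 21, 70.7, 50.8 and 16.1, all near background. The gd12 arrays read 519, 712 and 964, and the gd14 arrays 3529, 2271 and 2734. Every gd12 array was thus above every gd11 array and below every gd14 array. Intensity then stood at 3947, 3304 and 3232 at gd16, at 5785, 5593 and 4129 at gd18, and at 8357, 9882 and 9159 at pnd2. The rise from gd11 to gd12 was 3.87 ± 0.29 (SE), which is at least 9.9-fold, and that from gd11 to pnd2 was 7.51 ± 0.29 (adjusted p = 3.39e-13), at least 127-fold. Without replicates 16 and 17 these were 3.52 and 7.16. The next step, gd12 to gd14, was 1.95 ± 0.32 (adjusted p = 0.000376); with gd12 replicate 15 as the only gd12 array it was 1.52 and not called (adjusted p = 0.055).

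Gstm2 and Gstm1 reached high intensity already at gd12. For Gstm2 the gd11 arrays read 418, 1255, 1891, 1423 and 1356, and the gd12 arrays 9175, 9085 and 12448. Later arrays lay at 13194, 15410 and 14077 (gd14), 15373, 14176 and 13032 (gd16), 20980, 17839 and 14618 (gd18) and 20765, 19667 and 21183 (pnd2). The step to gd12 was 3.12 ± 0.29 (adjusted p = 6.46e-07), 8.71-fold, and no later step was called.
Gstm1 also stepped up at gd12. Its gd11 arrays read 662, 1555, 1647, 1489 and 1332, and its gd12 arrays 6483, 7488 and 10358. Later arrays lay at 9140, 11563 and 11214 (gd14), 12947, 10634 and 11222 (gd16), 16340, 15964 and 14410 (gd18) and 20067, 18028 and 20196 (pnd2). All gd12 arrays were above all gd11 arrays. The step to gd12 was 2.62 ± 0.21 (adjusted p = 9.31e-08), 6.14-fold. On both genes replicate 16 was the lowest gd11 array; without replicates 16 and 17 the steps were 2.70 for Gstm2 and 2.40 for Gstm1.

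Gstm7 rose from 548 ± 77.7 (SD, n = 5) at gd11 to 2146 ± 597 (n = 3) at gd12 and stayed between 1550 and 2591 as a stage mean. Gstm3 was highest at gd12: it went from 187 ± 40.3 to 756 ± 373, stood at 357 ± 55.7 at gd14, where all arrays were still above all gd11 arrays, and was at 176 ± 9.57 by pnd2. Its fall from gd12 to gd14 was not called (adjusted p = 0.0553). Gd12 replicate 13 read 329 for Gstm3 where the other gd12 arrays read 1020 and 918.
Of the end genes, Gstm5 read 4970, 4518, 4096, 4382 and 4125 at gd11 and 3285, 3218 and 3172 at gd12. It was at 3818, 3820 and 4031 at gd14 and at 5988, 5234 and 5058 at gd16, a rise of 0.47 ± 0.10 (adjusted p = 0.00609), and then at 4591, 4707 and 4783 (gd18) and 4307, 4680 and 5875 (pnd2). Its gd11 and pnd2 arrays overlapped. Gstm4 fell from 258 ± 43.7 to 163 ± 46.1 at gd12 and did not pass the F-test (adjusted p = 0.0556).

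Mu class genes are alike in sequence, and a probe set can take up transcript of a neighbour. The Gstm1 values come from a probe set of the _x_at kind and the Gstm3 values from an _s_at one, types that the maker marks as possibly reading several genes. The other 3 probe sets of Gstm1 rose too from gd11 to gd12, by 1.46 to 2.86, and the other one of Gstm3 by 2.41. That second Gstm3 probe set was also called higher at pnd2 than at gd11 (1.89, adjusted p = 0.000224), where the first gave -0.06; its stage means were 11.6 at gd11, 176 at gd12 and 74 to 111 later. The other probe set of Gstm7 was not called (0.08 from gd11 to gd12, adjusted p = 0.869), so the Gstm7 rise rests on 1 of 2 probe sets.

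**Figure D2:**
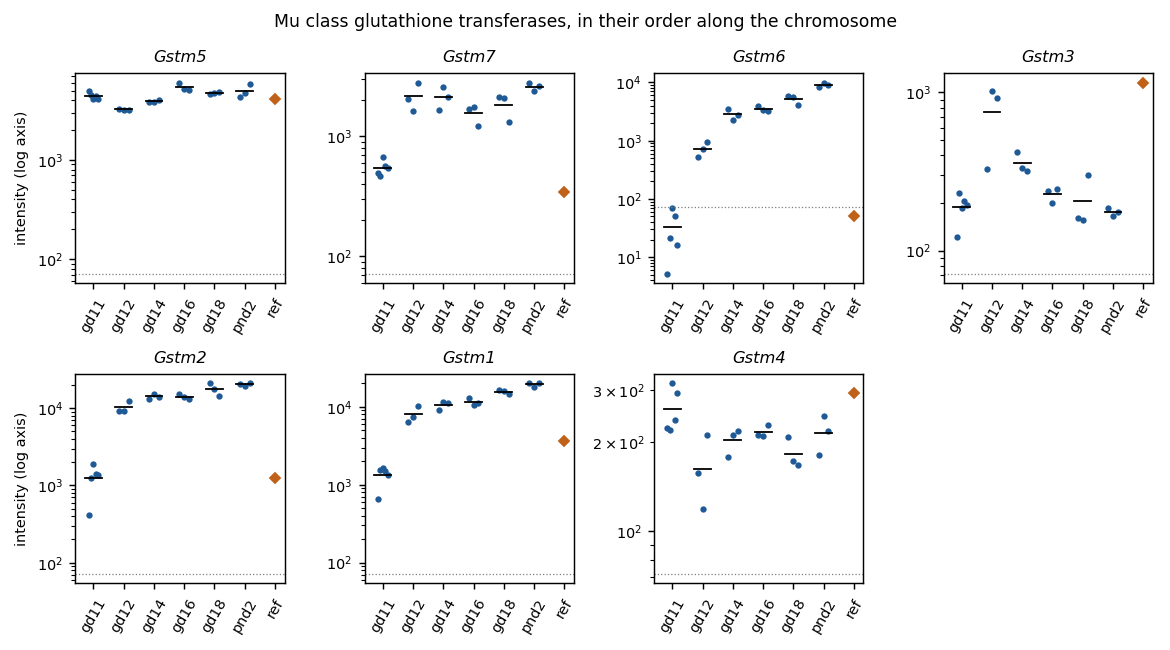
Intensity (log axis) of the 7 mu class genes on each array, 1 panel a gene in chromosome order, blue points for testis arrays by stage, black lines for stage means, and an orange diamond for the newborn reference (ref); the dotted line is the near-background level of 71.6. From gd11 to gd12 the points step up in the 5 inner panels and down in Gstm5 and Gstm4, and the reference lies below all gd12 to pnd2 arrays in Gstm7, Gstm6, Gstm2 and Gstm1.

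Marker genes of the cell types of the forming testis also changed from gd11 to gd12, a step in which 11.2% of all genes rose and 10.2% fell. Summed Sertoli cell genes rose as given above, with 10 of 11 called higher. Summed fetal Leydig cell genes went from 349 to 1275 at gd11 to 2241 to 5890 at gd12, with 4 of 7 called higher. Summed germ cell genes went from 805 to 1904 to 6318 to 20785, with 7 of 9 called higher. In the same step 5 of 9 neural genes and 3 of 7 kidney and mesonephros genes fell. The part of these cell types in the mu class changes was not tested.

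The alpha class rose after gd12. Gsta2, a transferase with peroxidase activity on lipid hydroperoxides, read 8.69, 53.1, 8.29, 62.9 and 5.04 at gd11 and 129, 44.7 and 65.7 at gd12. It then read 1117, 1461 and 1080 at gd14, 2987, 2729 and 2811 at gd16, 2176, 2077 and 2527 at gd18 and 1783, 1088 and 1647 at pnd2. Every array before gd14 was below every array from gd14 on, and the gd16 arrays were the highest. The first step, from gd11 to gd12, was called (1.12 ± 0.33, adjusted p = 0.0207), but the lower bound on the fold is only 1.01, the arrays overlapped and the call was lost without gd12 replicate 13 or 15. The step from gd12 to gd14 was 3.68 ± 0.37 (adjusted p = 1.94e-06), 12.8-fold. That from gd14 to gd16 was 1.22 ± 0.37 (adjusted p = 0.0427), a call that was lost when any 1 of the 6 arrays was left out (adjusted p up to 0.134). Over the whole series Gsta2 rose by 5.08 ± 0.33 (adjusted p = 4.05e-10), at least 20.6-fold.
Gsta3 climbed from 66.1 ± 32.1 (SD, n = 5) at gd11 and 93.7 ± 23.7 (n = 3) at gd12 to 288 ± 106 at gd14 and 829 ± 120 at pnd2. The call from gd12 to gd14 (1.39 ± 0.38, adjusted p = 0.0149) was lost without gd12 replicate 14 and without gd14 replicate 11, and the gene's other probe set gave 0.51 (adjusted p = 0.28). Over the whole series Gsta3 rose by 3.37 ± 0.34 (adjusted p = 1.31e-07), at least 10.4-fold, and its other probe set by 1.39. Gsta4, which handles the lipid breakdown product hydroxynonenal, was well above background at all stages. It rose from 3570 ± 393 at gd11 to 5533 ± 647 at gd14 and 9753 ± 191 at pnd2 (1.45 ± 0.10, adjusted p = 5.01e-10).

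When the alpha class rose, summed fetal Leydig cell genes went from 2241 to 5890 at gd12 to 38826 to 43867 at gd14 and 57705 to 73213 at gd16, and were at 21384 to 26349 at pnd2. Of 7 Leydig genes 6 were called higher from gd12 to gd14. All 7 were not called from gd14 to gd16 or from gd16 to gd18, and 1 (Cyp17a1) was called lower from gd18 to pnd2. The gd16 maximum of the Leydig sum thus rests on summed intensity and not on called changes. Gsta2 intensity was highest at the stage where the Leydig sum was highest, whereas Gsta3 and Gsta4 were highest at pnd2. The part of Leydig cells in these changes was not tested.

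Among the other transferases, Gsto2 stood out as transient. This omega class enzyme, which can reduce oxidised vitamin C, read 41.6, 32.3, 67.6, 31.9 and 35.3 at gd11 and 54.9, 48.6 and 87.5 at gd12. Its gd14 arrays read 295, 283 and 340, the gd16 arrays 347, 349 and 424 and the gd18 arrays 231, 260 and 481. At pnd2 it read 98, 139 and 99.3, below every array from gd14 to gd18 and above every array before. The rise from gd12 to gd14 was 1.95 ± 0.26 (adjusted p = 4.83e-05), at least 3.98-fold, and the fall from gd18 to pnd2 was -1.31 ± 0.26 (adjusted p = 0.00552). Summed germ cell genes were 47228 to 53937 at gd14, 27785 to 35436 at gd16, 12714 to 24251 at gd18 and 8902 to 13386 at pnd2. Summed fetal Leydig cell genes were 57705 to 73213 at gd16, where the Gsto2 mean was highest, 35237 to 52081 at gd18 and 21384 to 26349 at pnd2. Of the 7 Leydig genes only Cyp17a1 was called in the steps from gd14 on, lower from gd18 to pnd2. The part of either cell type in this course was not tested.

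The other omega gene, Gsto1, fell from 2255 ± 384 at gd11 to 1305 ± 201 at pnd2 (-0.77 ± 0.12, adjusted p = 2.87e-05). Gstk1, the kappa enzyme of mitochondria and peroxisomes, fell from 994 ± 188 to 475 ± 76.2 (-1.02 ± 0.16). Its fall from gd18 to pnd2 was called (-0.61 ± 0.18, adjusted p = 0.0452), but not when any 1 of the pnd2 arrays or gd18 replicate 5 or 6 was left out. Gstt1 and Gstt2 of the theta class rose from gd11 to pnd2, Gstt1 from 251 ± 127 to 769 ± 82.1 and Gstt2 from 248 ± 33.5 to 451 ± 51.2. Gstt3 and Gstz1, an enzyme of tyrosine breakdown, were called in no comparison, with changes from gd11 to pnd2 of 0.40 (95% interval -0.53 to 1.32) and -0.03 (-0.33 to 0.28). Gstp1, the pi class enzyme, was called lower at pnd2 than at gd11 (-0.51 ± 0.18, adjusted p = 0.0275), although it did not pass the F-test and its arrays overlapped; the call was lost without gd11 replicate 17, 18 or 19 and without pnd2 replicate 3.

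The microsomal transferases are membrane proteins of another family. Mgst1 rose at gd12 from 3732 ± 1170 to 5484 ± 203 and reached 8776 ± 911 at pnd2 (1.29 ± 0.20 over the series, adjusted p = 3.09e-05). The gd12 step was not called without gd11 replicate 17 or without any 1 of the gd12 arrays. Mgst2, which can make a leukotriene from glutathione, read 16.4, 67.7, 67.5, 41.4 and 73.7 at gd11, 161, 255 and 234 at gd12, and 200, 125 and 183 at gd14. It read 128, 97.6 and 90.1 at gd16, 3.49, 97.2 and 105 at gd18, and 61.3, 78.8 and 22.8 at pnd2. The gd12 and gd14 arrays were all above the gd11 and pnd2 arrays. Its rise to gd12 was 1.71 ± 0.43 (adjusted p = 0.00844), at least 2.95-fold, and the low reading of gd18 replicate 4 widens its spread. Mgst3 rose from 668 ± 159 at gd11 to 1095 ± 138 at pnd2.

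Of the 4 genes of glutathione synthesis and recycling, Gclc, Gclm and Gsr rose from gd11 to pnd2 and Gss was not called. Gclc, the catalytic subunit of glutamate-cysteine ligase, went from 701 ± 66 at gd11 to 1233 ± 258 at gd12 (0.78 ± 0.12, adjusted p = 0.000148) and 1515 ± 131 at pnd2. Its partner subunit Gclm went from 447 ± 121 to 928 ± 342 (0.99 ± 0.24, adjusted p = 0.00724) and 1195 ± 204. The Gclm arrays of gd11 and gd12 overlapped, and the call was lost without gd12 replicate 14. Neither gene's second probe set was called in this step (0.39 for Gclc, 0.11 for Gclm) or from gd11 to pnd2 (0.13 and 0.44). Gss, which completes the molecule, varied with stage (F-test adjusted p = 0.00625), with its highest mean of 539 ± 77.7 at gd14, but no pair of stages tested was called. Gsr, which reduces oxidised glutathione, climbed from 580 ± 39.6 at gd11 to 827 ± 97.8 at gd14 and 1417 ± 148 at pnd2 (1.25 ± 0.13, adjusted p = 1.38e-07). Its step from gd12 to gd14 (0.44 ± 0.14, adjusted p = 0.0377) was lost without gd12 replicate 13 or 15 and without gd14 replicate 10 or 12, and was not called on the second probe set (0.47, adjusted p = 0.14).

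The tested glutathione peroxidases, peroxiredoxins and catalase were 10 genes, with Prdx2, Prdx3 and Prdx4 the only peroxiredoxins among them. From gd11 to pnd2, 4 of the 10 fell (24.4% of all genes did), 3 rose (24.2% of all genes) and 3 were not called. Gpx1, the main cytosolic glutathione peroxidase, went from 8193 ± 144 at gd11 to 4962 ± 399 at pnd2 (-0.72 ± 0.13, adjusted p = 0.00014). Gpx4, which clears peroxides from membrane lipids, went from 6099 ± 175 to 4695 ± 261 (-0.38 ± 0.08, adjusted p = 0.000666). Catalase (Cat) fell at gd12, from 2191 ± 135 to 1661 ± 141 (-0.40 ± 0.09, adjusted p = 0.00556), and ended at 1418 ± 157. Prdx2, a peroxiredoxin abundant in red blood cells, fell from 18449 ± 913 at gd11 to 15322 ± 615 at gd12 (-0.27 ± 0.08, adjusted p = 0.0166) and 10851 ± 365 at pnd2 (-0.76 ± 0.08, adjusted p = 1.15e-07). The gd12 step of Prdx2 was lost without gd12 replicate 13 or 15. Summed intensity of 11 erythroid genes was 82432 to 89478 at gd11 and 673 to 756 at pnd2. Of the 11, 8 were called lower and 1 (Gata1) higher, with a median change of -1.47, and 7 were near background at pnd2. The sum includes the embryonic globins Hba-x, Hbb-bh1 and Hbb-y. From gd14 to gd16 and from gd16 to gd18 only these 3 genes of the list were called lower. The part of red cells in the falls of the enzymes above was not tested.

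Other members of these families moved the opposite way. Prdx3 of mitochondria rose from 1849 ± 189 to 2917 ± 388 (0.65 ± 0.12), and Prdx4 of the secretory pathway from 4518 ± 398 to 6734 ± 948 (0.57 ± 0.09), though of 3 further probe sets of Prdx4 1 was called (1.07) and 2 were not (-0.08 and -0.16). Gpx7, of the endoplasmic reticulum, went from 1637 ± 255 at gd11 to 2998 ± 477 at gd18 and 2328 ± 138 at pnd2 (0.51 ± 0.13 over the series). Its relative Gpx8 was called in no comparison, with a change from gd11 to pnd2 of 0.21 (95% interval -0.04 to 0.45). Gpx2, known from the gut, was near background at gd11, gd12, gd18 and pnd2 and was called in no comparison.
Gpx3, a secreted peroxidase, read 1008, 1310, 1393, 1564 and 1518 at gd11 and 1340, 1070 and 1532 at gd12. It read 1351, 1415 and 1629 at gd14, 1954, 1732 and 1720 at gd16, 1888, 2040 and 1961 at gd18, and 1138, 1065 and 1189 at pnd2. Its pnd2 arrays were below all arrays from gd14 to gd18, and the fall from gd18 was -0.78 ± 0.14 (adjusted p = 0.00312).

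The 3 superoxide dismutases differed in course. Extracellular Sod3 read 8.34, 16.2, 30.7, 3.64 and 2.2 at gd11 and 10.6, 17.6 and 60.3 at gd12, all near background. It read 90, 152 and 70.6 at gd14, 301, 172 and 106 at gd16, 635, 447 and 399 at gd18 and 600, 474 and 667 at pnd2. All gd18 and pnd2 arrays lay above all earlier ones. The rise over the series was 4.17 ± 0.34 (adjusted p = 9.33e-09), at least 8.02-fold, and a second probe set gave 3.58. The step from gd12 to gd14 was 1.35 ± 0.38 (adjusted p = 0.0184), at least 1.38-fold, and was lost without gd12 replicate 13 or 14 and without gd14 replicate 11; the step from gd16 to gd18, 1.34 ± 0.38, was not called (adjusted p = 0.0507). The second probe set placed its called step later, with 0.31 from gd12 to gd14 and 1.51 from gd14 to gd16 (adjusted p = 0.0149).
Cytosolic Sod1 varied by stage (F-test adjusted p = 0.00147) within a narrow range, 5812 ± 485 at gd11 to 7689 ± 411 at gd14. No pair of stages tested was called for Sod1, and gd11 against gd14 was not among the pairs tested. Its 4 probe sets disagreed: over the series they gave 0.11 and 0.01 (not called), 1.11 and -0.31 (both called). Mitochondrial Sod2 did not pass the F-test, and its change from gd11 to pnd2 was 0.05 (95% interval -0.31 to 0.42).

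**Figure D3:**
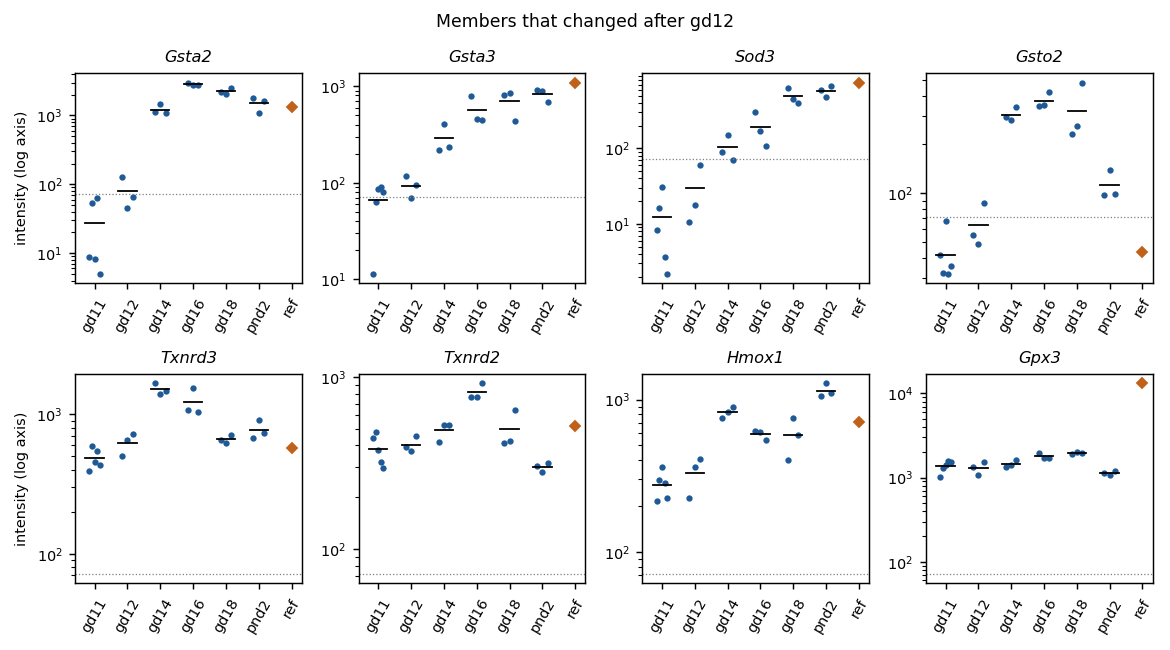
Intensity (log axis) of 8 members that changed after gd12, drawn as in the mu class plot. Gsta2, Gsta3 and Sod3 rise from near the dotted background line of 71.6, Gsto2 is high from gd14 to gd18, Txnrd3 peaks at gd14 and gd16, Txnrd2 at gd16, Hmox1 has high points at gd14 and pnd2, and the reference diamond of Gpx3 (13294) lies above all its testis arrays.

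Each of the 3 thioredoxin reductases, selenoproteins that recharge thioredoxin, had a course of its own. Cytosolic Txnrd1 fell from 4217 ± 768 at gd11 to 2550 ± 246 at gd12 (-0.71 ± 0.12, adjusted p = 0.000462) and to 1568 ± 173 at gd14 (-0.70 ± 0.14, adjusted p = 0.00165). It was at 2245 ± 150 at pnd2. Of the 2 other probe sets of Txnrd1, 1 was called from gd11 to gd12 (-0.76; the other gave -0.62) and neither from gd12 to gd14 (-0.46 and -0.14).
Txnrd3, which acts on thioredoxin and glutathione alike and is known from male germ cells, read 393, 591, 455, 542 and 437 at gd11 and 502, 658 and 724 at gd12. It rose to 1680, 1409 and 1468 at gd14, stood at 1073, 1551 and 1035 at gd16, and was back at 654, 620 and 709 at gd18 and 674, 915 and 731 at pnd2. Every gd14 and gd16 array was above every other array. The rise to gd14 was 1.26 ± 0.18 (adjusted p = 7.27e-05), and its 2 other probe sets rose by 1.23 and 1.34. The fall from gd16 to gd18 was -0.84 ± 0.18 (adjusted p = 0.00945), and -0.66 and not called without gd16 replicate 8 (adjusted p = 0.0823). Germ cell genes were also highest at gd14, as summed above, with 8 of 9 called higher from gd12 and 4 of 9 lower from gd16 to gd18; their part in the Txnrd3 course was not tested.

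Mitochondrial Txnrd2 read 440, 477, 377, 321 and 294 at gd11, 390, 371 and 451 at gd12 and 416, 526 and 524 at gd14. It read 760, 766 and 921 at gd16, 415, 426 and 644 at gd18 and 303, 280 and 318 at pnd2. The gd16 arrays were the highest, without overlap. The rise to gd16 was 0.72 ± 0.18 (adjusted p = 0.0198) and the fall to gd18 was -0.72 ± 0.18 (adjusted p = 0.0295). The rise was lost without gd14 replicate 10 or gd16 replicate 9 (adjusted p up to 0.104), and the fall when any array but gd18 replicate 6 was left out (adjusted p up to 0.162). The 3 other probe sets of Txnrd2 were not called in either step, so these changes rest on 1 probe set; 2 of the 3 were called higher a step earlier, from gd12 to gd14 (0.88 and 0.57). A further fall from gd18 to pnd2 (-0.65 ± 0.18, adjusted p = 0.0352) was lost without any 1 of the pnd2 arrays or gd18 replicate 6; 2 other probe sets were called in that step (-0.81 and -0.64). With Gstk1 also lost, leaving out any 1 of these 4 arrays brought the members called from gd18 to pnd2 from 5 to 3. Leaving out gd16 replicate 8 brought the members called from gd16 to gd18 from 2 to 0. Leaving out any 1 of gd16 replicate 9 and gd18 replicates 4 and 5 brought them to 1, and leaving out gd14 replicate 10 or gd16 replicate 9 brought those called from gd14 to gd16 from 3 to 1.

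Hmox1, the inducible enzyme that breaks down haem, rose at 2 separate times. It read 216, 296, 361, 282 and 226 at gd11 and 226, 359 and 407 at gd12. It then read 762, 830 and 892 at gd14, 623, 613 and 546 at gd16, 400, 755 and 589 at gd18 and 1049, 1284 and 1107 at pnd2. The gd14 and pnd2 arrays were high, those of pnd2 the highest of all. The rise from gd12 to gd14 was 1.30 ± 0.22 (adjusted p = 0.000438). That from gd18 to pnd2 was 0.99 ± 0.22 (adjusted p = 0.011), and 0.76 and not called without gd18 replicate 4 (adjusted p = 0.0516). The summed intensity of 14 macrophage and leukocyte genes was 2406 to 4457 at gd12, 2471 to 3091 at gd14 and 3306 to 5158 at gd16. It was 5197 to 9911 at gd18 and 5671 to 6715 at pnd2. Of the 14 genes, 1 was called higher from gd12 to gd14 and 1 lower from gd18 to pnd2. The part of these cells in the Hmox1 rises was not tested. Nqo1, a quinone reductase and a standard NRF2 target, went from 143 ± 64.5 at gd11 to 262 ± 56.3 at pnd2 (0.86 ± 0.29, adjusted p = 0.0198). Gd11 replicates 16 and 17 read 72.6 and 74.6 for Nqo1 against 171 to 207 on the others; the call was lost without gd11 replicate 17, pnd2 replicate 1 or pnd2 replicate 3.

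**Figure D4:**
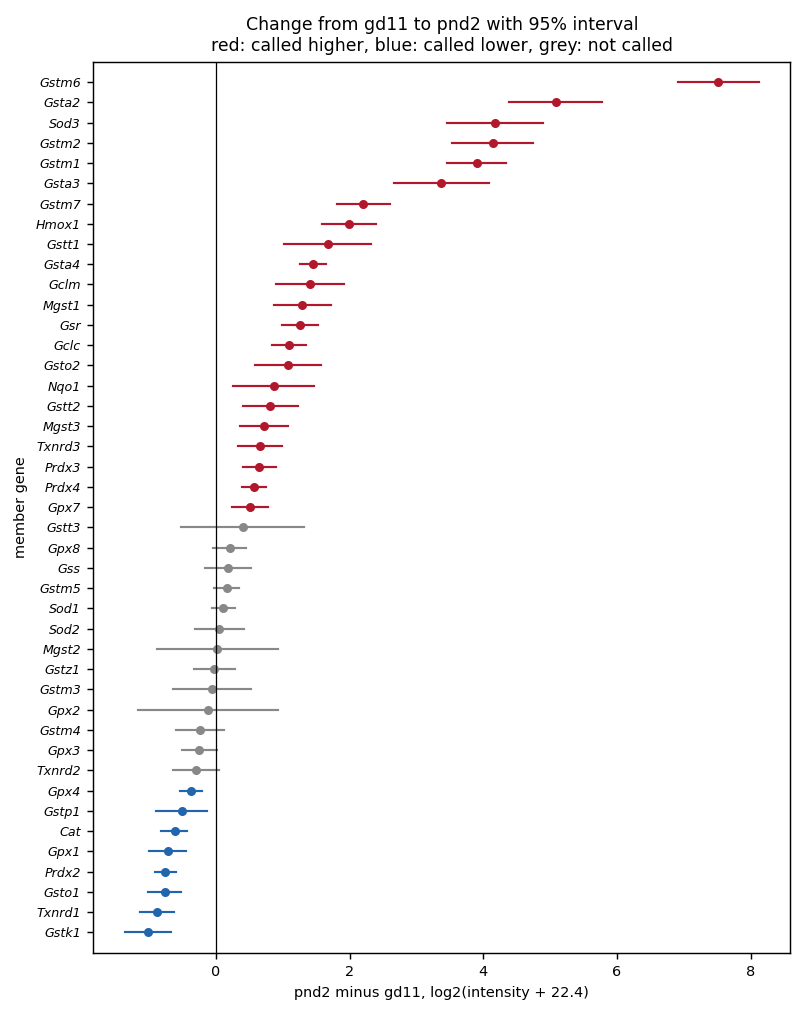
Change from gd11 to pnd2 in log2(intensity + 22.4) for each of the 43 genes (points) with the 95% interval of the limma fit (bars), red for the 22 called higher at pnd2, blue for the 8 called lower and grey for the rest. Gstm6 is at the top with 7.51 and Gstk1 at the bottom with -1.02.

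Partner genes of the pathway were followed in 8 lists from gd11 to pnd2, an interval in which 24.2% of all genes rose and 24.4% fell. Of 8 genes for NRF2 and its partners 4 rose and 1 fell, with a list median of 0.42. Nfe2l2, the gene of NRF2 itself, was not called (0.41, adjusted p = 0.0746). Mafk, a small Maf protein that binds DNA with NRF2, rose from 198 to 532 (1.36 ± 0.18, adjusted p = 4.58e-06), and Bach1, a repressor at the same DNA sites, fell from 3198 to 1262 (-1.32 ± 0.10, adjusted p = 1.84e-09). Among 7 genes of NADPH supply, 1 rose and 2 fell (median -0.08). The riser was Me1, cytosolic malic enzyme, from 559 to 10094 (4.16 ± 0.17, adjusted p = 5.72e-13). Taldo1 of the pentose phosphate pathway fell by 0.53.
Of 11 genes for glutathione transport and breakdown 5 rose and 1 fell (median -0.08). Oplah, which turns oxoproline back into glutamate, rose from 210 to 1393 (2.66 ± 0.26, adjusted p = 1.08e-07), and Dpep1, a dipeptidase that splits cysteinylglycine, from 73.5 to 327 (1.88 ± 0.30, adjusted p = 3.83e-05). Among 10 thioredoxins, glutaredoxins and sulfiredoxin 2 rose and 4 fell (median -0.10). Txnip, which binds and holds back thioredoxin, rose from 1709 to 7499 (2.13 ± 0.30, adjusted p = 8.56e-06), and nucleoredoxin (Nxn) fell from 1388 to 634 (-1.10 ± 0.14, adjusted p = 2.88e-06).

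The remaining lists were small. Of 4 genes of haem and iron handling 3 rose (median 0.64), including the biliverdin reductases Blvrb (1.18 ± 0.14) and Blvra (1.08 ± 0.25), which act on the product of haem oxygenase. Of 8 other peroxide and superoxide partners 4 rose and 1 fell (median 0.19), with Pon3 at 0.73 (0.35 and not called without gd11 replicates 16 and 17) and the sestrin Sesn3 at -0.91. Of 4 methionine sulfoxide reductases Msrb3 rose (1.09 ± 0.21), and of 3 glyoxalase and formaldehyde genes Hagh rose (0.42 ± 0.15). The list counts above use all arrays and changed without gd11 replicates 16 and 17. Of 30 partner genes called, 24 then kept their call, while Ccs, Fth1, Glrx, Pon3, Tkt and Txn2 lost it. Idh1 (0.39), Idh2 (-0.35) and Nnt (-0.33) became called. Among the genes named as called here, only Pon3 lost its call. The largest shift was that of Txnip, to 1.66. Blvra was at 0.62, Msrb3 at 0.82, Oplah at 2.44, Bach1 at -1.39 and Me1 at 4.16. Nfe2l2, not called in either fit, was at 0.13.

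Set against the whole-newborn reference, pnd2 testis was at least 2-fold higher for 7 of the 43 genes (17.5% of all genes) and at least 2-fold lower for 14 (17.3% of all genes). Since the reference is 1 array, no test was made. The 4 genes furthest above it were all of the mu class. Gstm6 read 51.3 in the reference, near background, against 8357, 9882 and 9159 at pnd2, a difference of 6.95 and at least 127-fold. Gstm2 read 1237, which is 16.3-fold below its pnd2 level, and Gstm7 and Gstm1 were 7.17-fold and 5.23-fold lower in the reference. Gsta4 (4.59-fold), Gpx8 (2.41-fold) and Gsto2 were the other 3. Gsto2 was counted on its log2 difference of 1.02. Its reference value of 43.2 was near background, and the lower bound on its fold, 1.54, does not reach 2. Gsta2 and Gsta3 were not among the 7: the reference read 1318 and 1083, within 2-fold of pnd2 testis.

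The tested genes furthest below the whole newborn were Mgst2 and Gpx3. Mgst2 read 1057 in the reference against 61.3, 78.8 and 22.8 (-3.89, at least 14.3-fold). Gpx3 read 13294 against 1138, 1065 and 1189 (-3.53). Gstm3 (-2.57), Gpx2 (-2.49, at least 3.76-fold), Cat (-2.32) and Gsto1 (-2.18) followed. The rest of the 14 were Sod2, Gstz1, Gstt2, Gpx1, Gpx4, Gss, Gstk1 and Mgst3, at -1.22 to -1.96. The filter on low values used testis arrays alone, so a gene high only in the newborn was not tested. Gstp3 was left out in this way, at 1569 in the reference against at most 59.7 on any testis array. Liver and muscle weigh in the reference: its summed intensity of 5 liver genes was 140550, against at most 2689 on any testis array, and that of 9 skeletal muscle genes was 161099, against at most 4391. The part of these organs in the differences was not tested. At a gene's other stages the order against the reference could change, since Gstm2 at gd11 (1269 ± 534) was near its 1237 and Gstm3 at gd12 (756 ± 373) was within 2-fold of its 1151.

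**Figure D5:**
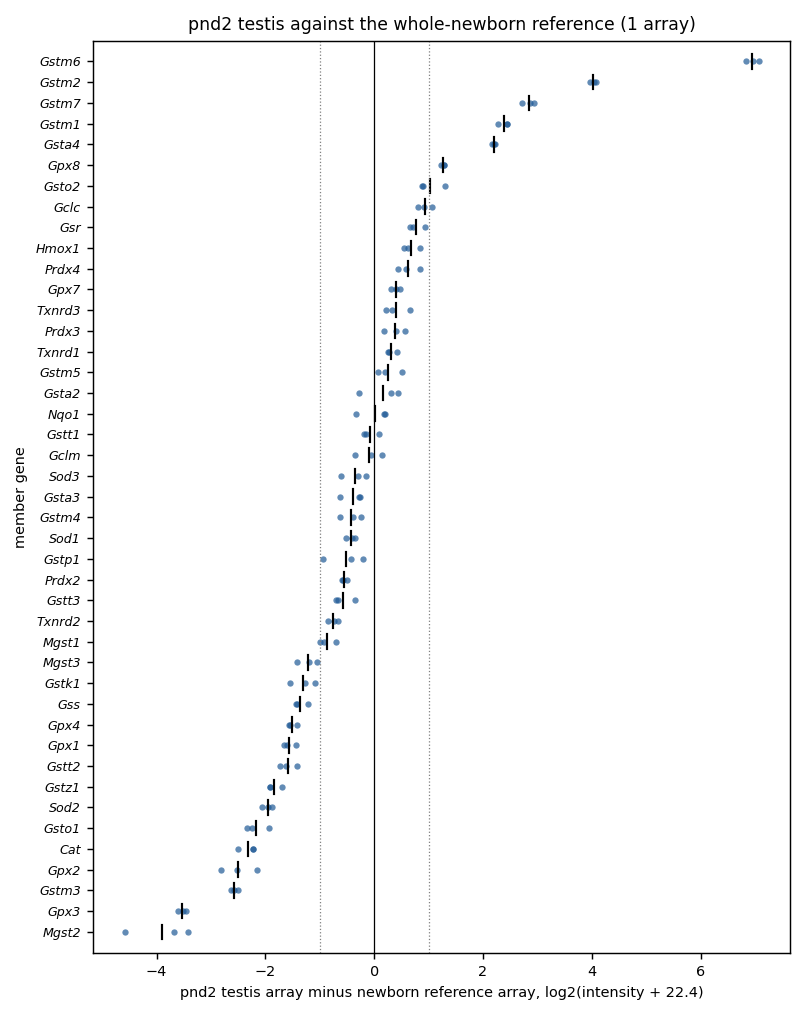
For each of the 43 genes, the difference in log2(intensity + 22.4) between each of the 3 pnd2 testis arrays and the newborn reference array (blue points) and their mean (black line), with dotted lines at the 2-fold limits of -1 and 1. Gstm6, Gstm2, Gstm7 and Gstm1 lie at the top, and Mgst2 (-3.89) and Gpx3 (-3.53) at the bottom.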

How the data were processed

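Whole-testis RNA was measured on 20 single-channel arrays and newborn RNA on 1. The deposited files hold 1 linear-scale intensity for each probe set, which the authors obtained with the Affymetrix program GCOS, as stated per the submitters' processing notes. GCOS settings and version: not given in the sources used here. Each array's mean, with the lowest and highest 2% trimmed, was 500. The series' design text describes triplicates of single animals, the sample labels 5 arrays at gd11 and pools at gd11 and gd12. The labels were followed. P-values measure the spread between these samples, which are pools at gd11 and gd12. The labels name no batch.

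Gene names came from the platform's table, matched by Entrez identifier to a RefSeq table of GRCm38.p6 for 34741 of the 34945 probe sets with 1 gene (932 had several, 9160 none). Deposited intensities were taken to log2(intensity + 22.4), the 20th percentile of testis values. A probe set was kept if 3 or more testis arrays had it above the 40th percentile of that array, and each gene was represented by the probe set with the highest mean. For the 14338 genes, limma 3.58.1 in R 4.3.3 fitted 6 stage means at once (eBayes, variance trend on intensity; degrees of freedom 14 residual, 4.94 prior), with Benjamini-Hochberg adjustment over all genes. The steps were tested on simulated data.

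The members, marker lists, pathway lists and tests were chosen with earlier results of these data known. Values on every array are given for the 3 called members with the largest change in each of the 6 comparisons, the 3 with the largest range among those passing the F-test, and the 2 furthest from the reference in each direction; other members are given as means or counts, with disagreeing probe sets named, and from each pathway list the 2 called genes with the largest change. Alternatives covered the pseudocount, filter, normalization, choice of probe set, fit and each array left out.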

Additional observations from a re-analysis of the deposited data

Results flagged for a closer look

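At gd11, the only stage with more than 3 arrays, 5 of the 43 genes had 1 array far from the other 4. Arrays were compared on the logarithmic scale on which changes are given, not on the linear intensities printed here. On that scale the gap to the nearest array, divided by the whole range, was above Dixon's 95% critical value for 5 samples. Chance gives such a mark in about 1 of 20 groups. Replicate 16 was the lowest array for Gstm2 (418, ratio 0.725), for Gstm1 (662, ratio 0.766), for Gsta3 (11.5, ratio 0.778) and for Gpx8 (2331, ratio 0.734). Replicate 18 was the highest for Gpx7 (2083, ratio 0.727). Replicate 16 was also the array with the highest summed neural genes (64917), and the part of that in its low values was not tested.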

How the results depend on the processing

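Over the alternatives run, 24 single-gene results were followed. They were the largest called changes of each comparison, the largest stage ranges and the genes furthest from the reference, and other members are not in this count. None of the 24 turned its direction, and of 401 values for them 375 kept their side of the threshold or stayed within the replicate spread. The count from gd16 to gd18, 2 as reported, was 4 after quantile normalization and 6 in a fit of those stages alone, where 4 were higher and 2 lower against 0 and 2 as reported. Fits of 2 stages alone also gave 10 genes from gd14 to gd16 (3 as reported) and 8 from gd18 to pnd2 (5 as reported); the cause was not tested. With gd12 replicates 13 and 14 both left out, the lone gd12 array being assumed to vary like the other groups, 9 genes were called from gd11 to gd12 (15 as reported) and 6 from gd12 to gd14 (10 as reported). Leaving out 1 array at a time gave 12 to 16 genes from gd11 to gd12, 8 to 10 from gd12 to gd14, 1 to 3 from gd14 to gd16, 0 to 2 from gd16 to gd18, 3 to 5 from gd18 to pnd2, 28 to 31 from gd11 to pnd2, 35 to 37 over all stages, and 20 to 21 at least 2-fold from the reference. The pseudocount sets the size of changes from near background: with 64 in place of 22.4 the rise from gd11 to pnd2 was 6.61 for Gstm6, 4.12 for Gsta2 and 3.08 for Sod3, and with 16 it was 7.73, 5.33 and 4.48. The Gsta2 call from gd14 to gd16 was also lost with a pseudocount of 16 (adjusted p = 0.0691 by limma). With the mean of all probe sets of a gene, Txnrd2 was not called from gd14 to gd16 (0.39) or from gd16 to gd18 (-0.53). Near background, a low array shows only that signal was not separable from background at this sensitivity. No paired analysis was possible because the replicate numbers run through the whole series and no number occurs in more than 1 group.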
